A study of Mus musculus with 14 samples.

Results

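The inducible Kruppel-like factors are 7 genes of 1 transcription factor family, Klf2, Klf3, Klf4, Klf5, Klf6, Klf7 and Klf10, followed here in freshly isolated satellite cells of mice, which are stem cells of muscle. They were taken by symbol, as the rows of 2 count tables whose Ensembl identifier carries that symbol, 7 of 49671 genes. The list of symbols was drawn up with earlier results of these data known. All 7 were found in both tables and passed the filter on low counts in both. In all, 14 libraries were sequenced, each from 1000 satellite cells of C57BL/6J mice, collected from resting muscles of the hind limb and from pectoral and triceps. The sort kept cells with integrin B1 and CXCR4 on their surface and dropped those with Sca1, CD31, CD45, Ter119 or CD11b. Sorting by a GFP reporter of the immediate early gene Fos gave 4 FosGFP+ and 4 FosGFP- libraries from animals 4 months old (4 mice in the series text), which make up the first table. The other table holds 3 libraries labelled FoscKO, a conditional knockout of Fos, and 3 labelled Control, from animals 6 months old (3 mice). The labels name neither the Cre driver nor the deleted exons, and FosGFP+ is the stated gate of FoscKO and Control alike. Which mouse gave which library is not labelled, so p-values measure the spread between libraries, which may in part be technical.

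Kruppel-like factors bind GC-rich and CACCC sequences of promoters through zinc fingers at their C-terminal end, and differ in the partners that their N-terminal ends recruit. Klf2, Klf4, Klf5, Klf6 and Klf7 mostly activate transcription with the help of histone acetyltransferases, Klf3 represses through the corepressor CtBP, and Klf10 represses through the corepressor Sin3. Several of them are immediate early genes, whose mRNA rises within minutes to hours of serum, stress or injury, and tissue dissociation is such a stimulus for satellite cells. Klf2 is known for holding lymphocytes quiescent and for its place in endothelium, Klf4 as a reprogramming factor, and Klf5 as a regulator of muscle differentiation. Klf6 is induced on tissue injury, Klf7 is known from axon growth, and Klf10 was found as an early gene of TGF-beta.

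In GRCm38, Klf2 (ENSMUSG00000055148) lies on chromosome 8 from 72319033 to 72321656, Klf3 (ENSMUSG00000029178) on chromosome 5 from 64803388 to 64832901, and Klf4 (ENSMUSG00000003032) on chromosome 4 from 55527143 to 55532466. Klf5 (ENSMUSG00000005148) lies on chromosome 14 from 99298691 to 99315036, Klf6 (ENSMUSG00000000078) on chromosome 13 from 5861482 to 5870394, Klf7 (ENSMUSG00000025959) on chromosome 1 from 64029447 to 64122282, and Klf10 (ENSMUSG00000037465) on chromosome 15 from 38291463 to 38300706. Klf4, Klf7 and Klf10 are on the minus strand. Exons of Klf7 share 3196 bp with Gm26649 and 4 bp with Gm13748, and those of Klf3 share 404 bp with Gm20033, each on the opposite strand. The library kit does not keep the strand, so reads there cannot be assigned to either gene. Gm26649 was listed with 0 counts in all 14 libraries and Gm20033 with 20 to 84.

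The promoters of 5 members are in the RefSeq table of GRCm38.p6 used here. Those of Klf2, Klf4 and Klf6 are shown because their mRNAs behaved differently in the first comparison, with Klf2 lower in every FosGFP+ library than in any FosGFP- library and the others higher. Each runs 5′ to 3′ on the gene's own strand, ends before the annotated start of transcription, and has in capitals the matches to a MEF2 element, a GC box (GGGCGG) or a CCAAT box (CCAAT) on either strand. They are chr8:72318812-72319032 (plus strand), chr4:55532476-55532725 (minus strand) and chr13:5861239-5861481 (plus strand).
Klf2: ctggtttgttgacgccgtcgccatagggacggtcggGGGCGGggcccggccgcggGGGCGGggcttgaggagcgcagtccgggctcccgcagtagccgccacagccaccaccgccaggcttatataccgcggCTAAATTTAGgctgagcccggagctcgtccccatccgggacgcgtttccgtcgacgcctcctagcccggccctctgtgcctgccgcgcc
Klf4: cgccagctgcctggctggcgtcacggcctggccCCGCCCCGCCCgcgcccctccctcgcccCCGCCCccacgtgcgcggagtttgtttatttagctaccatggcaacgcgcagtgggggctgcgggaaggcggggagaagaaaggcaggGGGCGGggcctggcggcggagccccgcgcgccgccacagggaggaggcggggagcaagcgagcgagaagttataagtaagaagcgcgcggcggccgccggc
Klf6: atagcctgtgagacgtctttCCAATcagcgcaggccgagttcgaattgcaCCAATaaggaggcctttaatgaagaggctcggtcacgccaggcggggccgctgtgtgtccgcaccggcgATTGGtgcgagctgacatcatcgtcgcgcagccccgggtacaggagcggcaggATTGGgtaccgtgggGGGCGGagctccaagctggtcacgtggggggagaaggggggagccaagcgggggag

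The 250 bases before the RefSeq start of Klf2 hold a match to the MEF2 element, CTAAATTTAG, which begins 118 bases before that start. Such a match stands in 0.508% of the 32851 promoter windows of the same length, and in none of the other 4 members' windows. GC boxes, the kind of site that this family itself binds, were found in all 5 windows, 2 in Klf2, 6 in Klf3, 4 in Klf4 and 1 each in Klf6 and Klf7, against 32.7% of all windows with at least 1. The window of Klf6 held 4 CCAAT boxes, which 33.9% of windows hold at least once. The CACCC box (CACCC) had 1 match in Klf2, 5 in Klf3 and 3 in Klf7, with 52.0% of all windows holding it. No match in these 5 windows was found to the AP-1 site TGACTCA (4.46% of all windows), the cyclic AMP element TGACGTCA (1.55%), the CArG box of serum response factor (1.47%), the ETS core CCGGAA (12.0%) or the TATA box TATAAA (12.4%). The window of Klf7 lies wholly within the annotated gene, and only 117 of the 250 bases of the Klf3 window lie before its annotated start. Both strands were searched, and a match is only a match of letters.

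Counts in genes ran from 2652230 to 5983711 per library in the first table and from 4797954 to 10241655 in the second. FosGFP+ libraries had 17.0% to 23.2% of their reads in genes, and FosGFP- libraries 10.3% to 14.1%. An even background of reads, read off the odorant, pheromone and taste receptor genes, made up 6.39% to 10.6% of gene counts in FosGFP+ and 13.0% to 19.4% in FosGFP-. Fos itself stood at 3098 to 5398 CPM (counts scaled to a common library size) in the libraries labelled FosGFP+ and at 7908 to 12883 in those labelled FosGFP-, so its mRNA goes against the sort label, and every direction is between libraries so labelled. The libraries labelled FoscKO held Fos at 8442, 2876 and 3805 CPM for replicates 1, 2 and 3, against 4733 to 5044 in Control, and FoscKO replicate 1 goes against its label, though counts outside the deleted exons would check nothing. FoscKO replicate 1 also stood apart with 30.2% of its reads in genes, against 15.9% to 22.7% in FoscKO replicates 2 and 3, and the differences, levels and list medians of that table are given with and without it. Markers of satellite cells summed to 11881 to 15391 CPM in FosGFP+ and 5384 to 8523 in FosGFP-, with 6 of 12 called higher and none at 0 throughout. Mature fibre markers, 0 of 10 called, summed to 707 to 1442 CPM in FosGFP+ and 724 to 950 in FosGFP-, and to 530 to 1691 in FoscKO and 1474 to 3152 in Control. Markers of fibro-adipogenic progenitors summed to 2409 to 3304 CPM in FosGFP+ and 1557 to 3533 in FosGFP-, with 1 of 9 tested called lower and a median log2 fold change of -0.82, and to 3354 to 6045 in FoscKO and 3376 to 4667 in Control. Smooth muscle markers summed to 507 to 679 CPM in FosGFP+ and 249 to 827 in FosGFP-, with 1 of 8 called lower, and leukocyte markers to at most 156 in any library. A sum can rest on few of its markers, and the sums were not split by marker. The part of these cells in the results was not tested.

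The 7 members spanned a wide range of levels, with Klf6 the most abundant in each of the 4 groups. Per kilobase of exon, Klf6 stood at 284 ± 40.2 CPM in Control (SD, n = 3) and at 320.3 ± 63.8 in FosGFP+ (SD, n = 4), at percentile 99.3 of the genes tested in each. It made up 66.7% of the summed level of the 7 genes per kilobase in FosGFP+, 60.1% in FosGFP-. Klf4, Klf10 and Klf2 formed a middle tier in Control, at 90.8 ± 35.7, 46.1 ± 5.35 and 17.9 ± 5.38 CPM per kilobase (SD, n = 3). The 3 genes did not overlap in Control. Klf5, Klf7 and Klf3 formed the lowest tier there, at 6.63 ± 1.47, 6.09 ± 1.2 and 4.94 ± 1.9 CPM per kilobase (SD, n = 3), and these neighbours overlapped. The level of Klf7 was divided by all its 8131 bp of exon, of which 3196 bp are shared with Gm26649. It may therefore be too low in every group, and the order of Klf7 against Klf5 and Klf3 is uncertain. In FoscKO the order ran Klf6, Klf4, Klf10, Klf2, Klf3, Klf7, Klf5, at 306 ± 138, 89.9 ± 39.0, 83.8 ± 30.2, 47.1 ± 33.5, 8.55 ± 2.46, 5.83 ± 2.02 and 5.02 ± 0.983 CPM per kilobase (SD, n = 3), with every pair of neighbours overlapping except Klf6 with Klf4 and Klf2 with Klf3. Without FoscKO replicate 1 the order was the same, at 227, 67.6, 66.6, 27.99, 7.22, 4.69 and 4.45 CPM per kilobase (means of 2 libraries), and the pairs Klf4 with Klf10 and Klf7 with Klf5 overlapped.

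**Figure D1:**
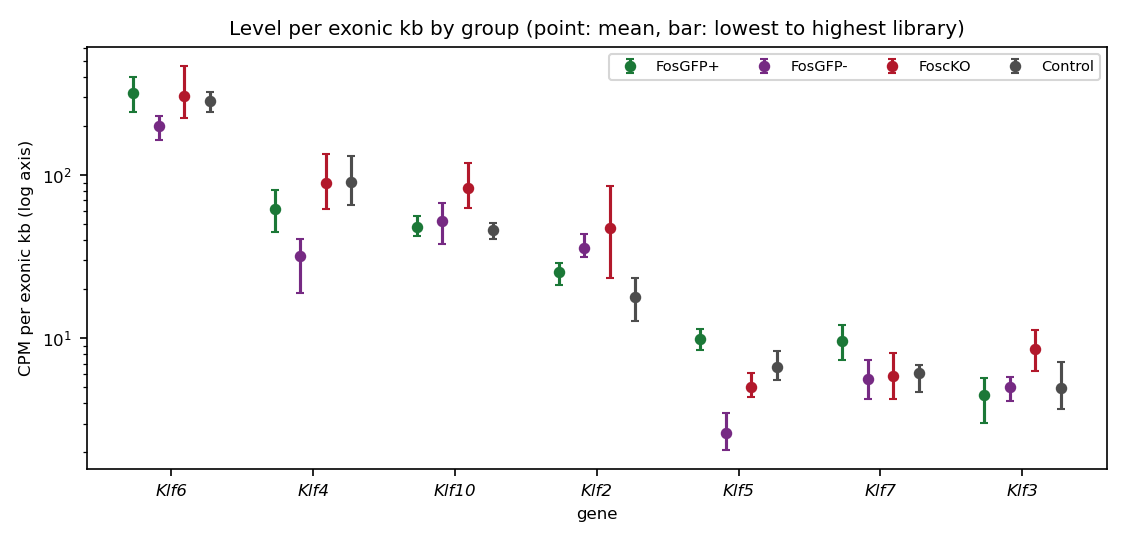
Level of each member in CPM per kilobase of exon on a log axis, by group. Points are means over 4 (FosGFP+, FosGFP-) or 3 (FoscKO, Control) libraries and bars run from the lowest to the highest library. Klf6 leads in every group, and Klf5 in FosGFP-, at 2.63, is the lowest point.

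The order of levels per kilobase changed between the groups, with the place of Klf7 under the limit given above. In FosGFP+ it ran Klf6, Klf4, Klf10, Klf2, Klf5, Klf7, Klf3, where Klf4 and Klf10 overlapped, as did Klf5 and Klf7. In FosGFP- it ran Klf6, Klf10, Klf2, Klf4, Klf7, Klf3, Klf5. There the libraries of Klf10 overlapped with those of Klf2, those of Klf2 with those of Klf4, and those of Klf7 with those of Klf3. Klf5 had its level per kilobase at percentile 32.9 of the tested genes in FosGFP-, at 2.63 ± 0.608 CPM, and at percentile 78.2 in FosGFP+, at 9.91 ± 1.48 (SD, n = 4). With the length of the longest transcript in place of all exons, which differ most for Klf3 (5221 against 11243 bp), Klf10 ranked above Klf4 in FosGFP+ and FoscKO, Klf3 above Klf7 in FosGFP-, Klf5 above Klf7 in FoscKO, and Klf3 above both Klf5 and Klf7 in Control.

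The first comparison asks how these factors differ between satellite cells sorted as positive and as negative for the Fos reporter. Klf4, Klf5, Klf6 and Klf7 were called higher in FosGFP+, and Klf2, Klf3 and Klf10 were not called. A call is an adjusted p under 0.05 from edgeR's quasi-likelihood test over 20698 genes. Of all those genes 12.1% were called, 10.3% higher and 1.85% lower. Of the 4002 genes with a mean of at least 50 CPM 41.9% were called higher and 1.02% lower. Of the 7 members 6 average over 50 CPM, with Klf4, Klf6 and Klf7 called higher, and are to be read against that larger share. Klf5, the other gene called, averages less, at 51.5 CPM in FosGFP+ and 13.7 in FosGFP-. Between FosGFP+ and FosGFP- libraries there was no overlap for 4 of the 7, 3 higher and 1 lower, against 19.3% of all genes, 12.9% higher and 6.45% lower. These shares are over genes of all levels, here and in the second comparison. They were not taken for genes of at least 50 CPM, so the members cannot be set against abundant genes in this respect. The median log2 fold change of the 7 was 0.67, where all genes tested had -0.18 and genes of at least 50 CPM 0.57.

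**Figure D2:**
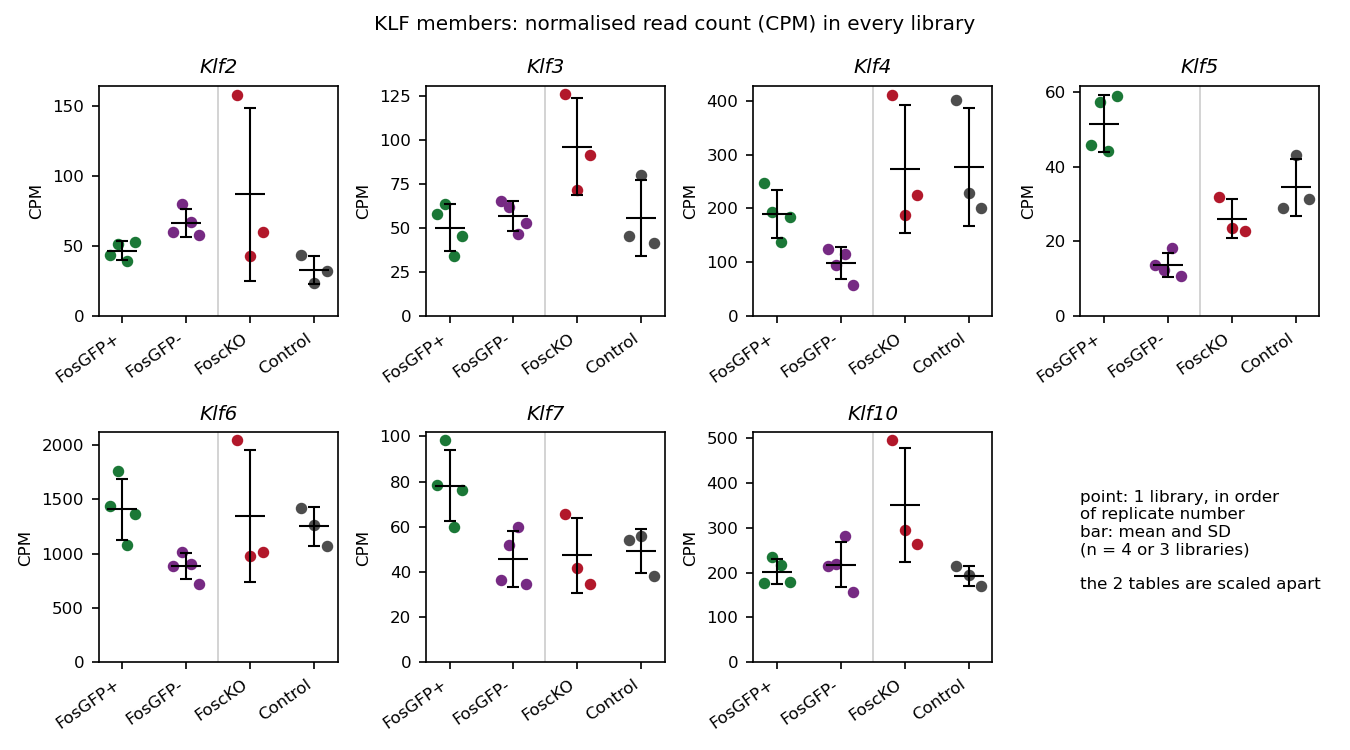
CPM of each member in every library, 1 panel per gene with its own axis from 0. Points are libraries in order of replicate number, and black bars give the mean and SD for n = 4 (FosGFP+, FosGFP-) or n = 3 (FoscKO, Control). Klf5 at 44.1 to 59.0 CPM in FosGFP+ lies wholly above FosGFP- at 10.8 to 18.1, and FoscKO replicate 1 is the highest of its group in all 7 panels.

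Klf5 had the largest difference of the 7. The FosGFP+ libraries had 45.8, 57.2, 44.1 and 59.0 CPM for replicates 1 to 4, and the FosGFP- libraries 13.6, 12.3, 18.1 and 10.8. All 4 FosGFP+ libraries were far above all 4 FosGFP- libraries. The log2 fold change was 1.91 ± 0.24 (SE), or 3.76-fold, with an edgeR adjusted p of 2.1e-04. Klf5 was also the member with the fewest counts in FosGFP-, 36 to 63, of which the even background would account for 30.8% to 60.05%, against 5.85% to 11.0% in FosGFP+. After that background was subtracted the log2 fold change was 2.34. The authors' deposited table lists Klf5 at 1.89 ± 0.25 (SE) in the same direction, with an adjusted p of 1.35e-11. That table lists 4 of the 7 members, and 7.73% of all genes with a count.

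Klf4 had 247, 192, 137 and 183 CPM in FosGFP+ replicates 1 to 4 and 124, 95.0, 114 and 57.9 in FosGFP-. The groups did not overlap, though the lowest FosGFP+ library, replicate 3, came near the highest FosGFP- library, replicate 1. The log2 fold change was 0.95 ± 0.24 (SE), with an edgeR adjusted p of 0.0154. Klf6, the most abundant member, had 1432, 1758, 1076 and 1361 CPM in FosGFP+ and 888, 1013, 902 and 723 in FosGFP-. The gap between the lowest FosGFP+ and the highest FosGFP- library was again narrow. Its log2 fold change was 0.67 ± 0.18 (SE; edgeR adjusted p = 0.024). Klf7 had 78.4, 98.4, 59.7 and 76.4 CPM in FosGFP+ and 36.3, 52.0, 60.1 and 34.6 in FosGFP-. FosGFP- replicate 3 reached above FosGFP+ replicate 3, so these groups overlapped. Its log2 fold change was 0.78 ± 0.23 (SE; edgeR adjusted p = 0.0369). The authors' deposited table lists the same 3 genes as higher, Klf4 at 0.98, Klf6 at 0.75 and Klf7 at 0.83.

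Klf2 stood on the other side. FosGFP+ libraries had 43.4, 51.4, 39.3 and 53.1 CPM and FosGFP- libraries 60.4, 80.4, 67.0 and 57.9. Every FosGFP- library was above every FosGFP+ library. The log2 fold change of -0.50 ± 0.20 (SE) did not pass, with an edgeR adjusted p of 0.115. Klf2 is abundant in endothelium, which the gate against CD31 and Sca1 is meant to remove. Of 12 endothelial markers tested 1 was called lower and 0 higher, and the 14 markers summed to 238 to 301 CPM in FosGFP+ and 322 to 419 in FosGFP-, also without overlap, and none was at 0 throughout. Their part in the result was not tested.

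Klf3 and Klf10, the repressors of the set, did not differ beyond the spread between libraries. Klf3 ran from 33.8 to 63.7 CPM in FosGFP+ and from 46.6 to 65.0 in FosGFP-, a log2 fold change of -0.17 ± 0.23 (SE; edgeR adjusted p = 0.655). Klf10 ran from 178 to 234 CPM in FosGFP+ and from 157 to 280.4 in FosGFP-, a log2 fold change of -0.11 ± 0.20 (SE; edgeR adjusted p = 0.746). The lowest and highest libraries of Klf10 were both FosGFP-. The authors' deposited table lists neither of these genes, nor Klf2. FosGFP+ replicate 3 was the lowest of its group for 6 of 7 members and FosGFP- replicate 4 for 6 of 7. Each of these libraries also had the fewest counts in genes and the largest background share of its group. How often they were the lowest over all genes was not counted, so this is not a trait shown for the members alone.

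**Figure D3:**
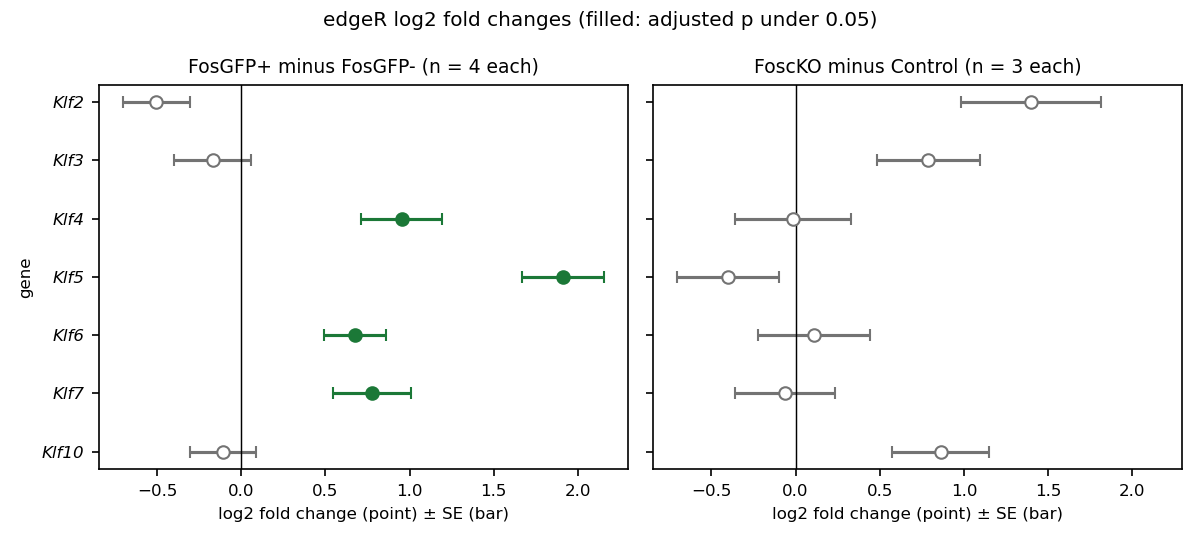
Log2 fold change of each member, as points with bars of 1 SE, for FosGFP+ minus FosGFP- (left, 4 libraries each) and FoscKO minus Control (right, 3 libraries each). Filled points have an edgeR adjusted p under 0.05: Klf4, Klf5, Klf6 and Klf7 on the left, from 0.67 to 1.91, and no gene on the right.

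How far the libraries are scaled against each other sets the zero of these differences. Klf5 was called higher in all 18 alternative settings, at 1.33 to 2.34. Klf4 was called in 15 of 18, Klf6 in 12 and Klf7 in 11. The median gene moved by -0.40 on the log2 scale with total counts, by -0.58 with TMM from genes of at least 50 CPM and by -0.19 with the background subtracted. With total counts Klf4 stood at 0.57, Klf6 at 0.27 and Klf7 at 0.38, with edgeR adjusted p-values of 0.067, 0.158 and 0.173, and Klf2 was called lower at -0.90 (0.00549). With TMM from genes of at least 50 CPM the same 3 stood at 0.39, 0.08 and 0.20 (edgeR adjusted p = 0.134, 0.613 and 0.418), and Klf2, Klf3 and Klf10 were called lower at -1.09, -0.77 and -0.68. With the even background subtracted Klf5 alone was called higher and Klf2, at -0.75 (edgeR adjusted p = 0.0252), lower. Over the 18 settings the adjusted p ran from 0.00116 to 0.134 for Klf4, from 0.00361 to 0.613 for Klf6, from 0.0107 to 0.418 for Klf7 and from 0.00186 to 0.395 for Klf2. Leaving out FosGFP+ replicate 2 or 4 or FosGFP- replicate 1 ended the calls of Klf6 (0.58, 0.73 and 0.69) and Klf7 (0.68, 0.83 and 0.69), and leaving out FosGFP- replicate 4 that of Klf7 (0.67). In all 18 settings Klf5 had the highest and Klf2 the lowest log2 fold change of the 7, with Klf4, Klf7 and Klf6 next below Klf5 in that order.

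**Figure D4:**
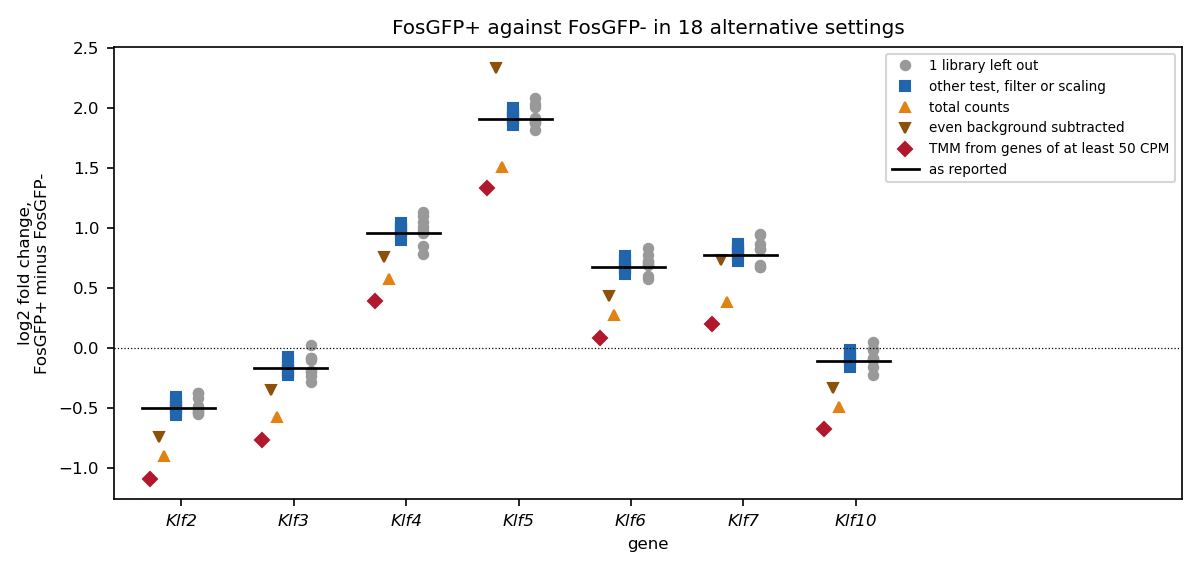
Log2 fold change of each member, FosGFP+ minus FosGFP-, as reported (black bar) and in 18 alternative settings, coloured by kind. Klf5 lies at 1.33 or higher and Klf2 at -0.38 or lower in all of them, while Klf6 falls to 0.08 with TMM from genes of at least 50 CPM.

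Ratios between members within a library do not depend on the scaling. The count ratio of Klf5 to Klf2 was 1.05 to 1.12 in the 4 FosGFP+ libraries and 0.154 to 0.270 in the 4 FosGFP- libraries. That of Klf4 to Klf2 was 3.45 to 5.69 against 1.00 to 2.06, that of Klf6 to Klf2 25.6 to 34.2 against 12.5 to 14.7, and that of Klf7 to Klf2 1.44 to 1.91 against 0.598 to 0.897. None of these 4 ratios overlapped between the groups, whereas those of Klf3 and Klf10 to Klf2 did. The ratios were chosen after values were seen and are given with no test. A ratio to Klf2 higher in FosGFP+ with no overlap was found for 25.3% of 19820 genes and for 60.1% of the 7073 genes of at least 20 CPM, so it is common among abundant genes.

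The second comparison asks whether these factors differ in cells labelled FoscKO. None of the 7 was called by edgeR, nor was any of 21885 genes (0%), although 1208 had an unadjusted p under 0.05. DESeq2 called 59 genes higher and 34 lower and no member among them, and the authors' deposited table lists 69 genes (0.158% of those with a count) and no member. The median log2 fold change of the 7 members was 0.11, where all genes tested had -0.04 and genes of at least 50 CPM 0.24. Without FoscKO replicate 1 these values were -0.33, -5.9e-04 and 0.061.

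Klf10 was the 1 member whose groups did not overlap. It had 495, 294 and 262 CPM in FoscKO replicates 1, 2 and 3 and 214, 194 and 169 in Control. All 3 FoscKO libraries were higher than all Control libraries, as held for 5.75% of all genes tested (6.47% were lower with no overlap, none of them a member). The log2 fold change was 0.86 ± 0.29 (SE), with an edgeR adjusted p of 0.711, and 0.53 without FoscKO replicate 1. Klf2 had 158, 43.1 and 60.4 CPM in FoscKO and 43.4, 23.6 and 32.3 in Control. FoscKO replicate 2 lay just below Control replicate 1, and FoscKO replicate 1 was far above all others. The log2 fold change was 1.40 ± 0.42 (SE; edgeR adjusted p = 0.609), and 0.65 without FoscKO replicate 1. Klf2 was called with no filter on low counts (1.44; edgeR adjusted p = 0.00408), while the adjusted p ran up to 1 over the 16 settings. Markers of endothelium summed to 243 to 305 CPM in FoscKO and 219 to 290 in Control, which overlap.

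Klf3 had 126, 71.2 and 91.3 CPM in FoscKO and 45.3, 80.1 and 41.2 in Control, where Control replicate 2 was above FoscKO replicate 2. The log2 fold change was 0.79 ± 0.31 (SE; edgeR adjusted p = 0.821), and 0.55 without FoscKO replicate 1. Klf5 had 32.0, 23.5 and 22.8 CPM in FoscKO and 28.8, 43.2 and 31.4 in Control, a log2 fold change of -0.40 ± 0.30 (SE; edgeR adjusted p = 0.914), and -0.58 without FoscKO replicate 1. Only FoscKO replicate 1 reached into the range of the Control libraries for Klf5.

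The ranges of Klf6, Klf4 and Klf7 overlapped between the groups. For Klf6 the overlap rests on FoscKO replicate 1, which lay above all Control libraries. FoscKO replicates 2 and 3 lay below all Control libraries for Klf6. Klf6 had 2045, 978 and 1014 CPM in FoscKO and 1419, 1260.1 and 1067 in Control, and its log2 fold change of 0.11 ± 0.33 (SE; edgeR adjusted p = 0.973) turned to -0.33 without FoscKO replicate 1. Klf4 ran from 188 to 410 CPM in FoscKO and from 201 to 402 in Control (-0.01 ± 0.34), and stood at -0.42 without FoscKO replicate 1. Klf7 ran from 34.5 to 65.9 CPM in FoscKO and from 38.3 to 56.0 in Control (-0.06 ± 0.30), and stood at -0.38 without it. FoscKO replicate 1 was the highest of its group for all 7 members, so each difference was smaller or more negative without it.

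The ratios of Klf4, Klf5, Klf6 and Klf7 to Klf2 did not overlap in this table either, and were lower in FoscKO. The count ratio of Klf5 to Klf2 was 0.203 to 0.545 in FoscKO and 0.664 to 1.83 in Control, and that of Klf4 to Klf2 2.60 to 4.37 against 6.24 to 9.63. Those of Klf6 and Klf7 to Klf2 were 13.0 to 22.7 against 32.7 to 53.3 and 0.418 to 0.970 against 1.19 to 2.37. FoscKO replicate 1 had the lowest ratio of its group for all 4, and FoscKO replicates 2 and 3 were also below Control. A ratio to Klf2 lower in FoscKO with no overlap was found for 34.7% of 19820 genes and for 49.2% of the 7073 genes of at least 20 CPM, and 36.8% of the latter had both patterns.

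The lists that follow are to be read against the 10.3% of all genes, and 41.9% of genes of at least 50 CPM, called higher in the first comparison, with medians of -0.18 and 0.57. Of 10 further KLF genes 8 were tested in the first comparison, and 1 was called higher, Klf9, a repressor induced by glucocorticoid and thyroid hormone, at 716 ± 73.5 CPM in FosGFP+ against 339 ± 76.6 in FosGFP- (SD, n = 4), or 1.08 ± 0.19 (SE) on the log2 scale (edgeR adjusted p = 0.00133). The next most abundant were not called: Klf11 at 0.40 ± 0.20, Klf13 at 0.22 ± 0.21 and Klf15 at 0.37 ± 0.27 (log2 fold change ± SE), each of which was below 0 with total counts and with TMM from genes of at least 50 CPM. Of the SP genes, several of which encode proteins that bind GC boxes, 4 of 9 were tested and 1 was called higher, Sp2, at 1.39 ± 0.26 (edgeR adjusted p = 0.00195). Sp3, Sp1 and Sp4 were not called at 0.53, 0.61 and 0.31, where Sp3 was below 0 with TMM from genes of at least 50 CPM and Sp4 with that and with total counts. With DESeq2 Sp3 and Sp1 were called higher (adjusted p = 0.0271 and 0.0272), as was Sp3 with edgeR without FosGFP+ replicate 1 (0.0453). The authors' deposited table lists Sp1 and Sp3 as higher. The medians of the tested KLF and SP genes were 0.30 and 0.57.

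Of 34 genes of regulators and cofactors of the family 33 were tested, and 6 were called higher and 0 lower, with a median of 0.33. Both this list and the next had a share called higher above the 10.3% of all genes. Both shares were under the 41.9% of genes of at least 50 CPM, but the lists also hold genes below that level. Among the 6 called here were Mef2a, Mef2d and Elk4, which encode transcription factors at promoters of immediate early genes, and Hdac4 and Ctbp1, which encode corepressors. Ctbp1, the partner of Klf3, stood at 232 ± 17.0 CPM against 116 ± 41.4 (SD, n = 4; edgeR adjusted p = 0.0129). Mef2d stood at 211 ± 24.0 against 115 ± 30.6 (edgeR adjusted p = 0.0105). Foxo1, which encodes a factor upstream of Klf2 in lymphocytes, was not called, at 122 ± 11.9 against 146 ± 17.3 CPM, but was called lower with total counts (-0.66) and with TMM from genes of at least 50 CPM (-0.84).

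Of 30 reported target genes 29 were tested, and 9 were called higher and 2 lower, with a median of 0.43, where 1.85% of all genes were called lower. The cell cycle inhibitor gene Cdkn1a, a target of Klf4 and Klf6 in other cells, rose from 340 ± 53.1 to 700 ± 109 CPM (SD, n = 4; edgeR adjusted p = 0.00131), and Odc1, an enzyme of polyamine synthesis, rose from 254 ± 68.9 to 924 ± 185 CPM (edgeR adjusted p = 1.61e-04). Mcl1, which encodes a survival protein, rose by 0.68 ± 0.17 on the log2 scale (edgeR adjusted p = 0.014), while the stress factor gene Atf3 fell from 2281 ± 102 to 1089 ± 284 CPM (edgeR adjusted p = 0.00186). Also called higher were Tgfbr1, Tgfbr2 and Smad2, which encode receptors and a signal carrier of TGF-beta, Fgfr3, Lgals3 and Nfe2l1, and called lower was Txnip. The call of Mcl1 was lost with total counts, with TMM from genes of at least 50 CPM, with the background subtracted and without FosGFP- replicate 1 (0.63), that of Mef2d with total counts and that TMM, and that of Ctbp1 with that TMM and the background subtracted. In the second comparison none of the tested genes of these 4 lists was called by edgeR, with medians of 0.65 for the KLF, 0.16 for the SP, 0.17 for the regulator and 0.20 for the target genes. Without FoscKO replicate 1 these medians were 0.053, -0.048, 0.0019 and -0.015, again with no gene of the lists called. The authors' deposited table lists 1 of them, Cdkn1c, a cell cycle inhibitor gene, at 1.42 ± 0.35 (SE) in FoscKO.

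The pattern of each member over the 14 libraries was compared with 7072 other genes by the root mean square difference of log2(CPM + 1), each gene centred on its mean in its table. Junb, an AP-1 subunit, Ier2 and Btg2, all immediate early genes, were nearest to Klf2, at 0.26, 0.27 and 0.29, where the median gene stood at 0.67. In the first table alone they ranked 99, 295 and 84 of 7072, and in the second 23, 18 and 74. Tgif1, Runx1 and Igf2bp2 were nearest to Klf5, at 0.21, 0.22 and 0.22 against a median of 0.68, but in the second table alone they ranked 921, 708 and 181. Trip10, Rbm39 and Stx5a were nearest to Klf6 (0.13 each), Gng5, Cops2 and Csnk1d to Klf7 (0.16 to 0.17) and Uba1, Med26 and Mafg to Klf4 (0.19 to 0.20). Tmub2, Stat5b and Gcc1 were nearest to Klf10 (0.19 to 0.20), and Ptov1, Acadm and Cdk2 to Klf3 (0.20 to 0.23). For Klf3, Klf4, Klf6, Klf7 and Klf10 the median gene also stood nearer, from 0.39 for Klf6 to 0.53 for Klf3. Their named neighbours ranked 2 to 176 in the first table alone and 11 to 305 in the second. The neighbours of all members rest in part on FoscKO replicate 1. Without it none of the 3 named stayed among the 3 nearest for Klf2, Klf3 and Klf10, while 2 stayed for Klf4 and Klf5 and 1 for Klf6 and Klf7. Junb, Ier2 and Btg2 then ranked 11, 20 and 48 for Klf2 over the 13 libraries, and 270, 93 and 1168 over the 5 of the second table. Between members the closest pair was Klf6 and Klf7, at 0.18, then Klf4 and Klf6 at 0.28, and at 0.17 and 0.29 without FoscKO replicate 1.

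**Figure D5:**
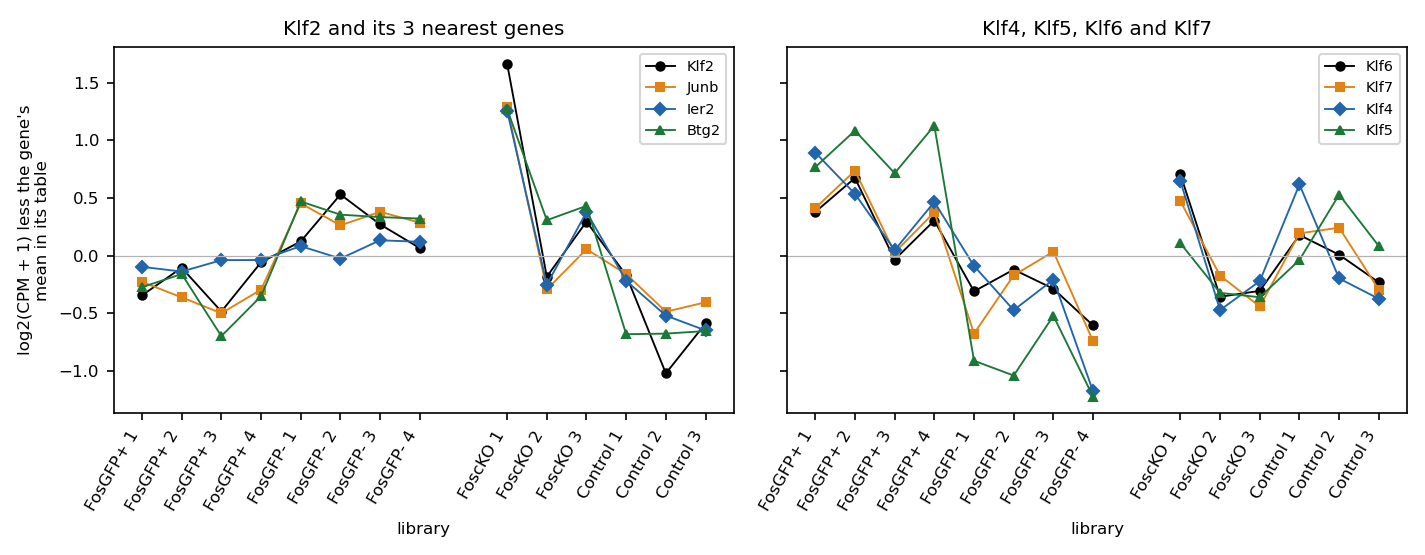
log2(CPM + 1) less the gene's mean in its table, for every library, with lines only to guide the eye. Left: Klf2 with Junb, Ier2 and Btg2, its 3 nearest genes, all highest in FoscKO replicate 1. Right: Klf4, Klf5, Klf6 and Klf7, where Klf6 and Klf7 lie 0.18 apart by root mean square and Klf5 has the widest swing between FosGFP+ and FosGFP-.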

How the data were processed

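Libraries were made with the SMART-Seq v4 and Nextera XT kits, per the labels' protocols. Raw counts, 1 table for each pair of groups, were deposited by the authors. Tools named in the submitters' processing notes, without saying what each did, are HTSeq 0.6.1, STAR 2.5.0c, limma and DESeq2 1.20.0, on GRCm38. Rows that name no gene were left out, and reads in genes were 10.3% to 30.2% of all rows' counts. Log2 fold changes, their SE (a score column) and p-values were also deposited by the authors, only for genes that passed their test, and signs were turned to test over reference. Their 14 per-library columns match no label and were left aside. Symbols and exonic lengths came from GENCODE M21, which holds 49412 of the 49671 identifiers.

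Each table was fitted apart with edgeR 4.0.16 in R 4.3.3: filterByExpr, TMM, the robust quasi-likelihood F-test (two-sided), its p-values adjusted by Benjamini-Hochberg over the genes tested. CPM uses TMM library sizes and SD is over libraries. SE is the log2 fold change over the root of F. The even background is the reads per exonic kilobase over 1469 receptor genes of smell and taste, times a gene's exonic length. The fit was tested on simulated counts. Alternatives were DESeq2 1.42.0 and its size factors, limma-voom (limma 3.58.1), other scalings and filters, background subtraction, the replicate number as a block, and each library left out. Leaving FoscKO replicate 1 out of levels, list medians and nearest genes was chosen after seeing the data.

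Members, lists and alternatives were chosen with earlier results of these data known. List genes are named by the rule of the 4 highest mean CPM per list, and the other list genes named are those called, chosen after their values were seen. The values of 1 list gene are not reported here. The nearest genes are the 3 smallest differences among genes of at least 20 CPM.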

Additional observations from a re-analysis of the deposited data

How the results depend on the processing

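Of the results for single genes, 488 kept their direction and their side of the threshold under an alternative, 28 lost a call, 11 gained one and 33 turned their direction; the causes were not tested. FosGFP+ against FosGFP- had 2125 genes higher and 383 lower (4 and 0 of the members). Total counts gave 1005 and 2243 (members 1 and 1), TMM from genes of at least 50 CPM 722 and 5252 (1 and 3), and background subtraction 1321 and 258 (1 and 1). DESeq2 called 648 lower, and a filter at a mean of 5 CPM 588. Leaving out 1 library gave 1689 to 2202 higher and 184 to 364 lower, and 2 to 4 members higher. The fewest lower calls, 184, came without FosGFP- replicate 1; counts below 383 by more than 1.5 times also came without FosGFP+ replicate 2 (245) or 4 (218) and without FosGFP- replicate 3 (237) or 4 (227).

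Directions turned with total counts for Klf11 (-0.0028), Klf13 (-0.18), Klf15 (-0.046) and Sp4 (-0.10), and with TMM from genes of at least 50 CPM for Klf11 (-0.20), Klf13 (-0.36), Klf15 (-0.24), Sp3 (-0.059) and Sp4 (-0.29). With 1 library left out Klf3 ran from -0.28 to 0.024, above 0 without FosGFP+ replicate 3, and Klf10 from -0.23 to 0.049, above 0 without FosGFP- replicate 3.

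FoscKO against Control had no call. Total counts gave 12 genes higher and 33 lower, TMM from genes of at least 50 CPM 11 and 32, no filter 85 and 46 (1 member, Klf2), a mean of 5 CPM 12 and 20, DESeq2 59 and 34, limma-voom 3 and 3, and background subtraction 2 and 13. Leaving out 1 library gave 0 to 16 higher and 0 to 27 lower, with calls only without FoscKO replicate 1. Klf4 turned to 0.041 with DESeq2 and with its size factors and to 0.021 with no filter, and ran from -0.42 to 0.37 with 1 library left out. Klf6 turned to -0.16 with total counts, -0.15 with TMM from genes of at least 50 CPM, -0.0016 at a mean of 5 CPM and -0.047 with the background subtracted, and ran from -0.33 to 0.31 with 1 library left out. Klf7 ran from -0.38 to 0.13. Without FoscKO replicate 1 the medians of the SP genes (-0.048) and of the target genes (-0.015) turned below 0. Fos, at 0.031, turned to -0.28 with total counts, -0.27 with TMM from genes of at least 50 CPM, -0.091 at a mean of 5 CPM, -0.13 with limma-voom, -0.15 with the background subtracted and -0.13 with the replicate block, and ran from -0.56 to 0.33 with 1 library left out.

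Replicate numbers are shared between groups. Same-numbered libraries deviated together weakly or not at all (r from -0.015 to 0.135 in the first table and from -0.077 to 0.207 in the second, across genes). Of them 2 of 4 and 1 of 3 were closest to their own number, with r of 0.119, 0.135 and 0.207. Whether equal numbers mark the same mouse is not labelled, and these values do not settle it. The fit with the replicate block called 2002 genes higher and 278 lower for FosGFP+, and 23 and 20 for FoscKO. Depth limits Klf5 most, with 36 to 63 counts in FosGFP-.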
